A study of Mus musculus with 14 samples.

Results

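The transcripts of GABA receptor subunits were followed in mouse striatum through every probe set whose platform gene symbol was Gabrd, Gabra2, Gabra4, Gabra5, Gabrb1, Gabrg1 or Gabbr1. A probe set is a group of short probes on the array that are read together as 1 value, for 1 or more transcripts. Of the 7 genes, 5 had a probe set, and these held 9 of the 22626 probe sets tested: 1 each for Gabrd, Gabra2 and Gabrb1, 2 for Gabrg1 and 4 for Gabbr1. Gabra4 and Gabra5 were not analysed here. The 14 arrays held striatal RNA of 7 R6/2 and 7 wild-type samples from mice of 6 weeks on a CBA by C57BL/6 background. Every mouse, wild-type included, was given saline by injection between 30 and 60 minutes before it was killed, as a control of 1 of 2 drug studies. The beginnings of the sample titles, M.C and Mith, were taken as those 2 cohorts, with 4 R6/2 and 4 wild-type arrays in M.C and 3 of each in Mith. R6/2 mice carry the start of human HTT, its first exon and promoter, with a long CAG repeat in addition to their own Htt, and serve as a fast model of Huntington disease. Nothing in the labels ties each array to an animal of its own, and the spread behind every p-value is therefore that between arrays. Precision is set by the small number of arrays in each group.

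GABA is the main inhibitory transmitter of the striatum, where most neurons are GABAergic projection neurons that also inhibit one another. GABA-A receptors are chloride channels assembled from alpha, beta and gamma or delta subunits. Those with a gamma subunit gather at synapses and carry brief inhibitory currents, while those with the delta subunit lie outside synapses and carry a tonic current in response to ambient GABA. GABA-B receptors are G protein-coupled and are obligate pairs of GABBR1, which binds GABA, and GABBR2, which couples to the G protein.

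Gabrg1, Gabra2, Gabra4 and Gabrb1 lie near one another on mouse chromosome 5, in that order among the receptor genes, with Cox7b2 between Gabra2 and Gabra4. Gabrd lies on chromosome 4, Gabra5 on chromosome 7, and Gabbr1 on chromosome 17. The 250 bases before the annotated start of the 3 measured genes of the chromosome 5 cluster are printed. Gabrg1 and Gabrb1 both differed between the 2 cohorts, while Gabra2, which lies between them, did not pass that test. In log2 units, M.C minus Mith, the 95% interval of Gabra2 was -0.57 to 0.09. It held the estimates of Gabrb1, -0.53, and of Gabrg1 1460408_at, -0.44, but not that of Gabrg1 1427227_at, -0.60. Whether the 3 genes differ from one another in this was not tested, nor was any link to the sequences. The sequences are RefSeq's on GRCm38.p6, each 5′ to 3′ on the strand of its gene, and capitals mark CpG dinucleotides. The positions are chr5:70842618-70842867 (minus strand) for Gabrg1, chr5:71095850-71096099 (minus strand) for Gabra2 and chr5:71699682-71699931 (plus strand) for Gabrb1, which has 2 annotated starts, the downstream one being shown.
Gabrg1: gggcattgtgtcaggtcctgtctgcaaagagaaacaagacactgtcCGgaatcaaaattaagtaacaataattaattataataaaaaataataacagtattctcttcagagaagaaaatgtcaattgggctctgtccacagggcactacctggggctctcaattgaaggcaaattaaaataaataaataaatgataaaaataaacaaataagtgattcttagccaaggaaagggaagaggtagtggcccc
Gabra2: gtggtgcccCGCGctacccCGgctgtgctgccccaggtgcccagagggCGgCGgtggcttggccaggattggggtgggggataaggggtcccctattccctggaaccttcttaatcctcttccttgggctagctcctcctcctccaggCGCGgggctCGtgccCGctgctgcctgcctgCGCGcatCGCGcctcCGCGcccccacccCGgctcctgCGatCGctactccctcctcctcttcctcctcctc
Gabrb1: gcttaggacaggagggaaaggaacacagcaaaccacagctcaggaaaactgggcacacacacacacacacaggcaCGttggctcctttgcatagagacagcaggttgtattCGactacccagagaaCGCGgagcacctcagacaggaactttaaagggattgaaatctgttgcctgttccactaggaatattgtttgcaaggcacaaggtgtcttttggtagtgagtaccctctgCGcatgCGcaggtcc
The Gabrg1 window was 35.6% G and C and held 1 CpG, and 18.8% of the 32851 windows of this length in the table held as few. The Gabra2 window was 70.0% G and C and held 18 CpGs, and 21.7% of windows held as many. The Gabrb1 window stood between these 2 windows, at 50.8% G and C with 6 CpGs, the median CpG count of all windows. Both strands were searched for the GC box (GGGCGG), the TATA box (TATAAA), the cyclic AMP response element (TGACGTCA) and 2 forms of the Egr site (GCGTGGGCG and then GCGGGGGCG), none of which contains another. GGGCGG was in the Gabra2 window and in 32.7% of all windows. None of the other 4 was in any of the 3 windows, against 12.4%, 1.55%, 0.536% and 2.57% of all windows in the order given.

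Gabrd, which encodes the delta subunit of extrasynaptic GABA-A receptors, was the 1 subunit of the 9 probe sets that passed the test, and it was lower in R6/2 striatum. Values are log2 signals brought to the same median on every array, and a change is the R6/2 mean minus the wild-type mean with cohort as a term. In M.C the Gabrd probe set 1449980_a_at read 7.73, 8.27, 8.34 and 8.25 on the R6/2 arrays, against 9.26, 9.06, 8.98 and 9.16 on the wild-type arrays. In Mith it read 8.33, 8.43 and 8.28 on the R6/2 arrays, against 8.66, 8.82 and 8.90 on the wild-type arrays. All 7 R6/2 arrays lay below all 7 wild-type arrays, as was the case for 0.389% of all probe sets. Gabrd averaged 8.24 ± 0.23 in R6/2 and 8.98 ± 0.20 in wild-type striatum (SD, n = 7 each). The change was -0.74 ± 0.10 (SE, 95% interval -0.96 to -0.52), which puts R6/2 at 59.8% of wild-type. The adjusted p was 0.00152 in limma's moderated test, with Benjamini-Hochberg adjustment over all probe sets. An exact permutation test that exchanged genotypes inside each cohort, two-sided, gave p = 0.00143, the smallest that its 1400 arrangements allow. Only 33 of the other 22625 probe sets had a lower change. In tissue of mixed cells, fewer cells of a type and less RNA per cell cannot be told apart.

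**Figure D1:**
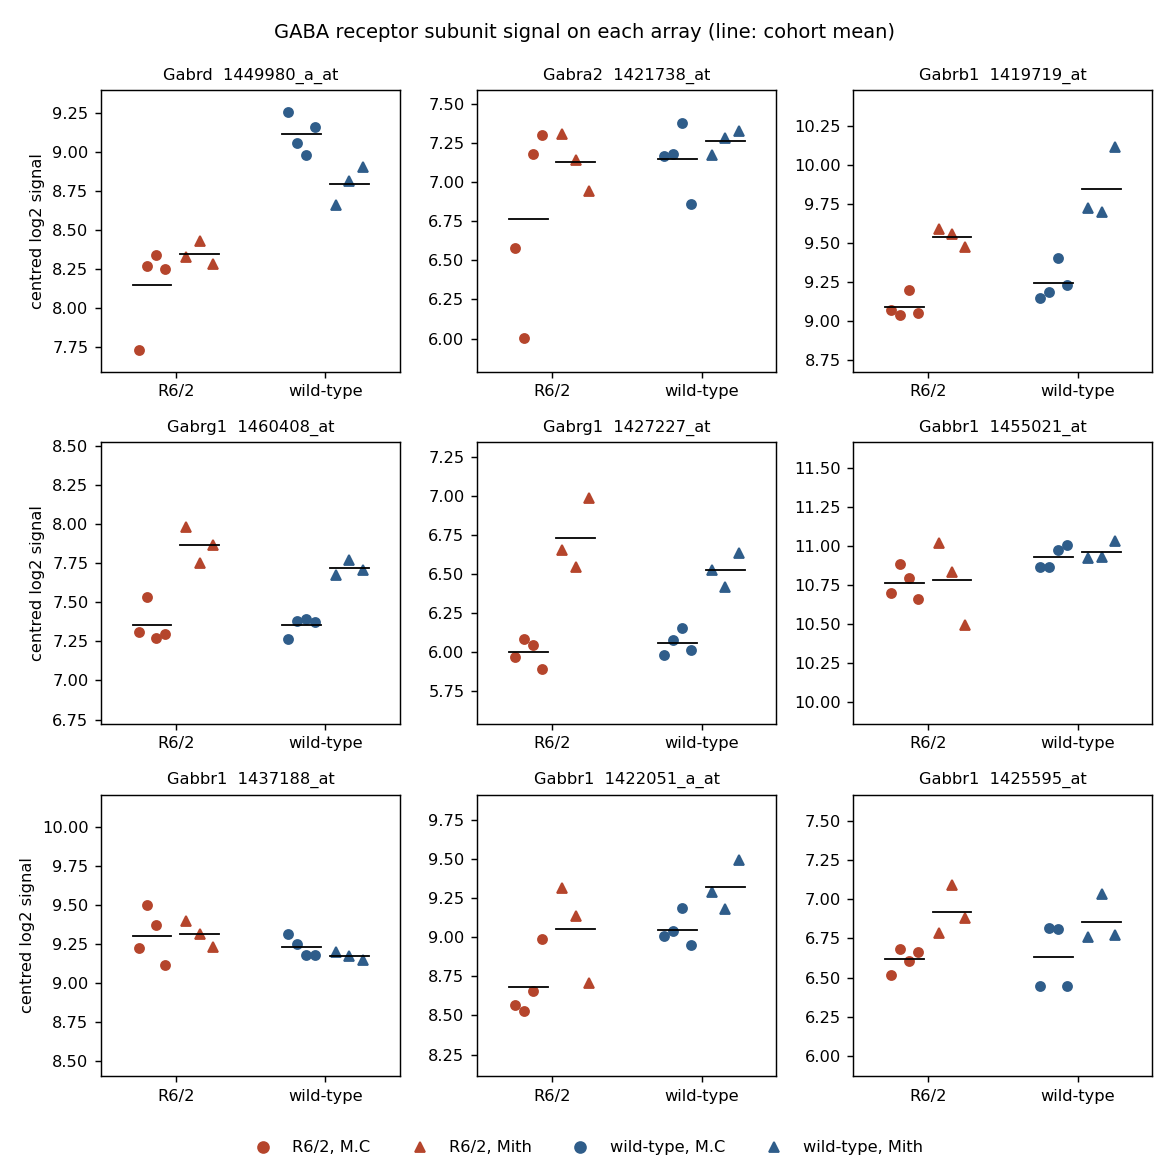
Centred log2 signal of each of the 9 probe sets on each array, R6/2 left of wild-type, with circles for M.C, triangles for Mith and a line at each cohort mean (n = 4 and 3 arrays). Every panel spans the same range of log2 units. The Gabrd points of the 2 genotypes do not overlap, and the Gabrb1 and Gabrg1 points separate by cohort.

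The Gabrd arrays of the 2 genotypes were apart in each cohort, R6/2 below wild-type, as for 6.33% of all probe sets in M.C and 6.34% in Mith. The change was -0.96 ± 0.12 in M.C, at 51.2% of wild-type (limma adjusted p = 0.00356). It was -0.45 ± 0.09 in Mith, at 73.4% of wild-type, with an unadjusted p of 0.000683 and a limma adjusted p of 0.241. In Mith no probe set of all 22626 passed the adjusted threshold, 0.0% called, although 8.87% had an unadjusted p under 0.05. The difference between the cohorts, M.C minus Mith, was -0.52 ± 0.17 (95% interval -0.88 to -0.16). It had an unadjusted p of 0.00774 and a limma adjusted p of 0.372, so the 2 cohorts were not shown to differ. No interaction passed over all probe sets (0.0% called, 9.78% at an unadjusted p under 0.05). The wild-type Mith arrays were all below the wild-type M.C arrays, and R6/2 replicate 1 of M.C was the lowest R6/2 array. Without that array the change was -0.65 ± 0.08 over both cohorts and -0.83 ± 0.08 in M.C, and Gabrd passed in both (adjusted p = 0.00137 and 0.00477 in limma).

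Gabra2 encodes an alpha subunit of synaptic GABA-A receptors and did not pass the test. Its probe set 1421738_at read 6.58, 6.00, 7.18 and 7.30 on the R6/2 arrays of M.C, against 7.17, 7.18, 7.38 and 6.86 on the wild-type arrays. In the Mith cohort the readings were 7.31, 7.14 and 6.94 on the R6/2 arrays, against 7.18, 7.29 and 7.33 on the wild-type arrays. The genotypes overlapped in both cohorts, and 2 R6/2 arrays of M.C, replicates 1 and 2, lay below all others. The change was -0.27 ± 0.16 (95% interval -0.60 to 0.05, limma adjusted p = 0.433). Without R6/2 replicate 2 it was -0.13 ± 0.11. These 2 low arrays had Actb 3′ minus 5′ differences of 0.64 and 0.85 log2, a sign of RNA quality described further on. The other R6/2 arrays of M.C, replicates 3 and 4, had Actb differences of 0.54 and 0.28 and read 7.18 and 7.30 for Gabra2. In Mith, R6/2 replicates 5, 6 and 7 had differences of 0.57, 0.64 and 0.74 and read 7.31, 7.14 and 6.94. With the Actb difference as a covariate the Gabra2 change was 0.12 ± 0.14, above 0 (limma adjusted p = 0.80). The part of RNA quality in the low readings was not tested.

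Gabrb1 encodes a beta subunit, the partner with which an alpha subunit forms the GABA site, and did not pass the adjusted test. Its probe set 1419719_at read 9.07, 9.04, 9.20 and 9.05 on the R6/2 arrays of M.C, against 9.15, 9.18, 9.40 and 9.23 on the wild-type arrays. In Mith it read 9.59, 9.56 and 9.47 on the R6/2 arrays, against 9.72, 9.70 and 10.11 on the wild-type arrays. The genotypes were apart in Mith, R6/2 below wild-type as for 6.34% of all probe sets, and overlapped in M.C through R6/2 replicate 3. The change was -0.22 ± 0.07 (95% interval -0.36 to -0.07), at 86.0% of wild-type. Its unadjusted p was 0.00557 and its adjusted p 0.111 in limma, and the exact permutation within cohorts gave p = 0.00429. M.C alone gave -0.15 ± 0.07 and Mith alone -0.30 ± 0.12, a difference of 0.15 ± 0.14 (adjusted p = 0.708 in limma).

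Gabrg1 encodes a gamma subunit, the class that brings receptors to synapses, and neither of its 2 probe sets passed the test of genotype. Probe set 1460408_at read 7.31, 7.53, 7.27 and 7.30 on the R6/2 arrays of M.C, against 7.26, 7.38, 7.39 and 7.38 on the wild-type arrays. The Mith arrays read 7.98, 7.75 and 7.86 for R6/2, against 7.68, 7.77 and 7.71 for wild-type. The genotypes overlapped in both cohorts, while every Mith array was above every M.C array. The change was 0.06 ± 0.06 (95% interval -0.06 to 0.18, limma adjusted p = 0.666), so a fall of the size seen for Gabrd lies outside the interval. It was 0.03 without R6/2 replicate 5, 0.04 without R6/2 replicate 2 and 0.03 both with array weights and with the Actb difference as a covariate.

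The second Gabrg1 probe set, 1427227_at, is assigned by the platform to the same sequence record. It read 5.97, 6.08, 6.05 and 5.89 on the R6/2 arrays of M.C, against 5.98, 6.08, 6.16 and 6.01 on the wild-type arrays. In the Mith cohort the readings were 6.65, 6.54 and 6.99 on the R6/2 arrays, against 6.52, 6.42 and 6.64 on the wild-type arrays. Here too the genotypes overlapped in both cohorts and every Mith array was above every M.C array. The change was 0.05 ± 0.07 (95% interval -0.10 to 0.21, limma adjusted p = 0.794) over both cohorts. M.C alone gave -0.06 and Mith alone 0.20. Without R6/2 replicate 7, the highest array, it was -0.01.

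Gabbr1, the GABA-binding subunit of the GABA-B receptor, had 4 probe sets with changes on both sides of 0, and none passed the test over both cohorts. Probe set 1422051_a_at read 8.57, 8.53, 8.66 and 8.99 on the R6/2 arrays of M.C, against 9.01, 9.04, 9.19 and 8.95 on the wild-type arrays. In Mith it read 9.32, 9.13 and 8.71 on the R6/2 arrays, against 9.29, 9.18 and 9.49 on the wild-type arrays. Except replicate 4, the R6/2 arrays of M.C were below all wild-type arrays, and the Mith arrays overlapped. The change was -0.32 ± 0.09 (unadjusted p = 0.00276, limma adjusted p = 0.0753). It passed without R6/2 replicate 4, at -0.37 (adjusted p = 0.0269), and without R6/2 replicate 5, at -0.38 (adjusted p = 0.0302). With the Actb difference as a covariate it was -0.12 ± 0.09 (adjusted p = 0.67).

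Gabbr1 probe set 1455021_at read 10.70, 10.89, 10.79 and 10.66 on the R6/2 arrays of M.C, against 10.87, 10.86, 10.98 and 11.00 on the wild-type arrays. The Mith arrays read 11.02, 10.83 and 10.49 for R6/2, against 10.92, 10.93 and 11.03 for wild-type. The genotypes overlapped in both cohorts, and the R6/2 arrays of Mith were spread over a wider range than the others. The change was -0.17 ± 0.07 (unadjusted p = 0.0241, limma adjusted p = 0.233). Probe set 1437188_at lay on the other side of 0, at 0.10 ± 0.06 (limma adjusted p = 0.452), and at 0.02 ± 0.07 with the Actb difference as a covariate (adjusted p = 0.943). Its R6/2 arrays ran from 9.11 to 9.50 with a median of 9.31, against 9.15 to 9.31 with a median of 9.18 for the wild-type arrays. In Mith each R6/2 array of 1437188_at was above each wild-type array, as for 6.61% of all probe sets. Probe set 1425595_at was at 0.02 ± 0.08 (adjusted p = 0.939). Its arrays ran from 6.52 to 7.09 in R6/2 and from 6.45 to 7.03 in wild-type striatum, with the genotypes overlapping in both cohorts.

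The changes of the 4 Gabbr1 probe sets were set against each other in 6 pairs, a comparison added after the data were seen. The change of 1455021_at minus that of 1437188_at was -0.27 ± 0.06 (exact permutation within cohorts p = 0.00143, adjusted over the 6 pairs p = 0.00858). The change of 1437188_at minus that of 1422051_a_at was 0.42 ± 0.12 (exact p = 0.01, adjusted over the pairs p = 0.03). With the Actb difference as a covariate, added after the data were seen, this last difference was 0.14 ± 0.09 (95% interval -0.07 to 0.35), and that of 1455021_at minus 1437188_at was -0.19 ± 0.08 (-0.36 to -0.02). The other 4 pairs had adjusted exact p-values of 0.0572 to 0.411. Gabbr1 is therefore described by probe set and not by 1 value, and which transcripts each probe set reads was not tested.

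**Figure D2:**
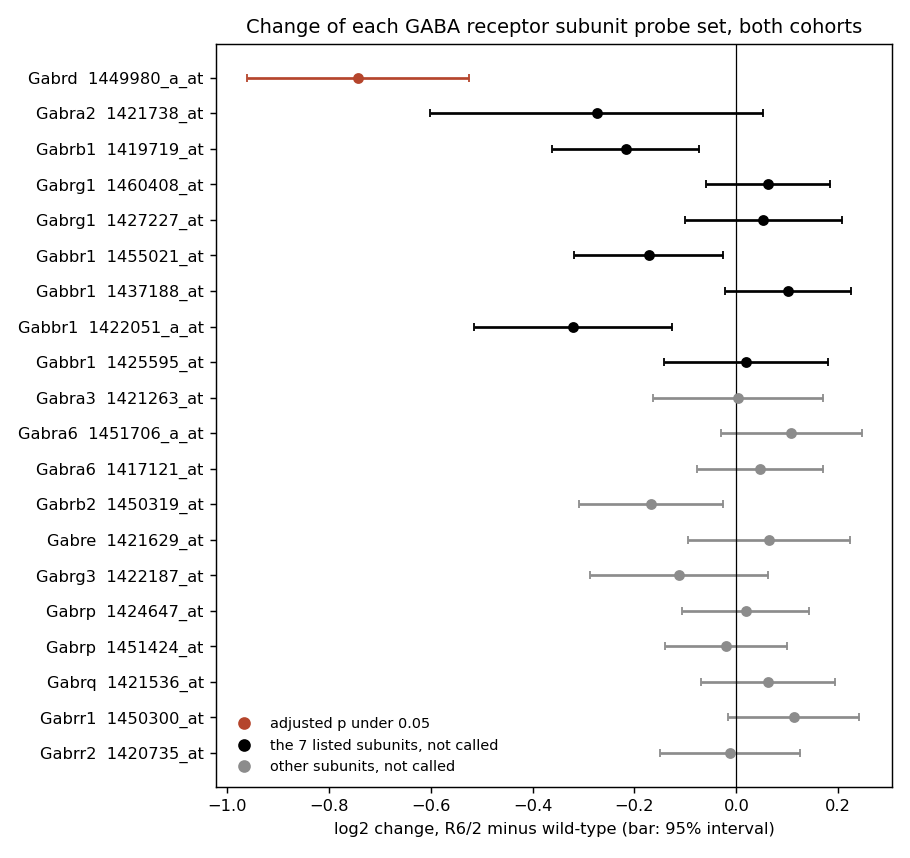
Log2 change, R6/2 minus wild-type over both cohorts (7 arrays per genotype), of the 20 GABA receptor subunit probe sets. Points are estimates with cohort as a term and bars are 95% intervals from limma. Gabrd, in red, lies at -0.74, and its interval does not meet that of any other probe set except Gabra2.

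Over the 9 probe sets, 1 was lower in R6/2, 0 were higher and 8 did not pass, against 2.55% of all probe sets called in either direction. Of all probe sets, 2.19% were lower and 0.362% were higher. With no adjustment, 4 had a p under 0.05 (Gabrd, Gabrb1 and Gabbr1 1455021_at and 1422051_a_at), against 15.2% of all probe sets. Changes were below 0 for 5 of the 9 and for 45.2% of all probe sets. The median change was -0.17 for the 9 and 0.01 for all. In M.C alone 1 of the 9 passed, Gabrd, against 2.47% of all probe sets, and in Mith alone 0 passed, with 2 at an unadjusted p under 0.05 (Gabrd and Gabrb1).

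**Figure D3:**
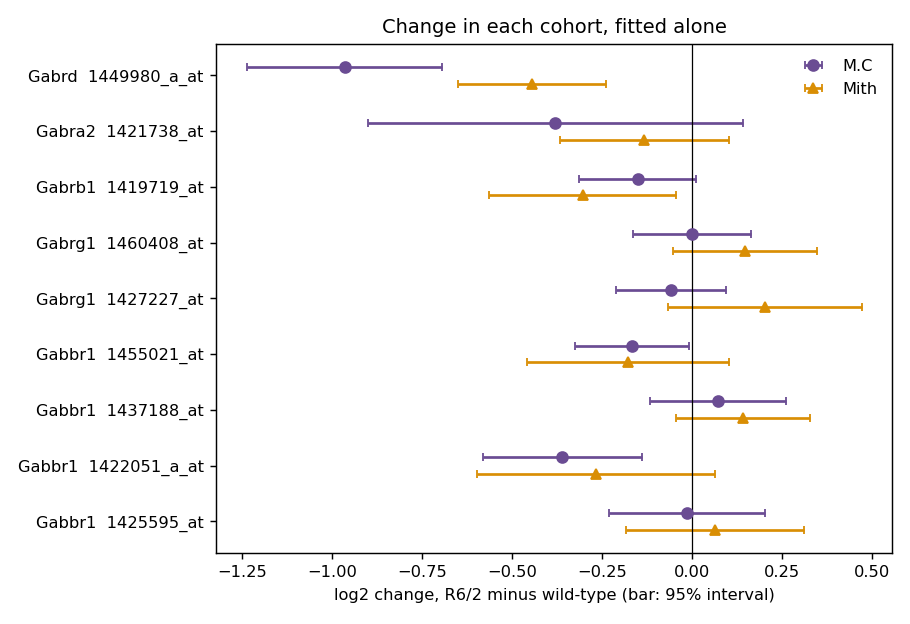
Log2 change, R6/2 minus wild-type, of the 9 probe sets in M.C (circles, 4 arrays per genotype) and in Mith (triangles, 3 per genotype), each cohort fitted alone. Bars are 95% intervals. Gabrd lies at -0.96 for M.C and at -0.45 for Mith. The Gabrg1 and Gabbr1 1425595_at estimates lie below 0 in M.C and above 0 in Mith, with intervals that include 0.

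Whether the extrasynaptic subunit fell further than the others was tested on the difference between 2 changes, that of a probe set minus that of Gabrd on the same arrays. For synaptic Gabra2 the difference was 0.47 ± 0.19 (95% interval 0.04 to 0.90, exact permutation p = 0.0357). For Gabrb1 it was 0.53 ± 0.14 (0.21 to 0.84, exact p = 0.00429). The Gabrb1 difference was 0.81 in M.C and 0.14 in Mith, a gap that was not tested. Both Gabrg1 probe sets differed from Gabrd by 0.80 ± 0.12 (exact p = 0.00143). The 4 Gabbr1 probe sets differed from it by 0.42 to 0.84, with exact p-values of 0.00143 to 0.0129. All 8 differences were above 0 in both cohorts and had exact permutation p-values adjusted over all probe sets of 0.00177 to 0.0363. The same test against Gabrd passed for 98.6% of all probe sets, so passing it is no result about synaptic subunits. The 8 differences also share the Gabrd values. In limma's moderated fit all 8 passed as well, against 99.1% of probe sets, but that fit gave all pairs 1 common SE of 0.14 and its p-values are not used here.

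**Figure D4:**
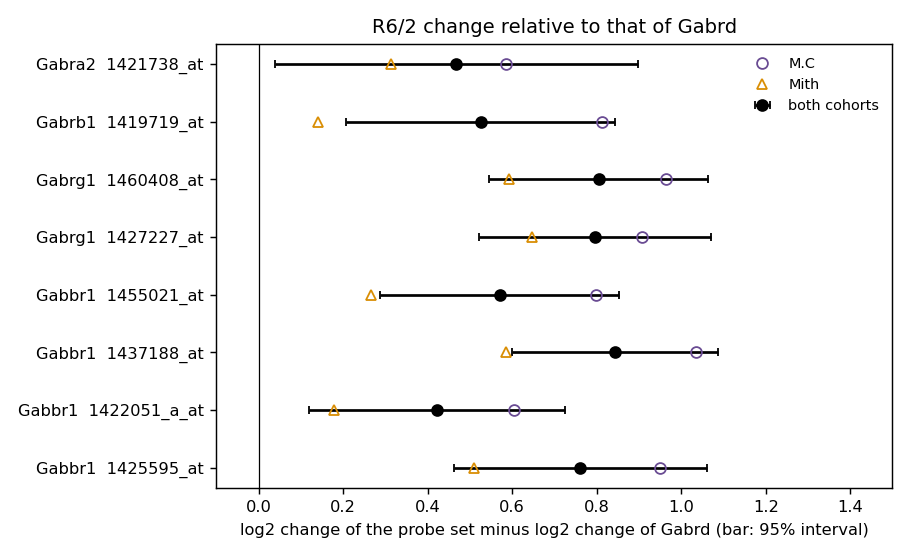
Change of each of the other 8 probe sets minus the change of Gabrd, in log2 units. Filled points with 95% intervals from ordinary standard errors are over both cohorts, open circles are M.C and open triangles are Mith. All estimates lie above 0, those of Mith closer to 0 than those of M.C.

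Between the cohorts more of the subunits passed the test. With genotype as a term, 5 of the 9 probe sets were lower in M.C than in Mith and 0 were higher, against 17.0% of all probe sets lower and 15.3% higher. Gabrb1 differed by -0.53 ± 0.07 (limma adjusted p = 3.84e-05), so M.C lay at 69.4% of Mith. Gabrg1 differed by -0.44 ± 0.06 (adjusted p = 4.26e-05) and -0.60 ± 0.07 (adjusted p = 2.16e-05) on its 2 probe sets. For these 3 probe sets every M.C array lay below every Mith array, as for 4.96% of all probe sets. Gabbr1 differed by -0.32 ± 0.09 on 1422051_a_at (adjusted p = 0.0139) and by -0.26 ± 0.08 on 1425595_at (adjusted p = 0.0148), but by -0.03 and 0.02 on its other 2 probe sets. Gabrd did not pass this test, at 0.06 ± 0.10 (95% interval -0.16 to 0.28, adjusted p = 0.689), and Gabra2 was at -0.24 ± 0.16 (adjusted p = 0.255). The cohorts also differed in marker genes of other cells: the median M.C minus Mith difference was -0.99 over 7 thalamic neuron markers and -0.82 over 8 mature oligodendrocyte markers, against 0.01 over all probe sets. Over 10 astrocyte markers it was -0.03, and over 8 microglia markers -0.05. The median was above 0 over 9 projection neuron markers, at 0.22, and over 9 interneuron markers, at 0.13. Over 4 cortical glutamatergic markers it was 0.06. The part of the thalamic and oligodendrocyte differences in the subunit differences was not tested.

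The other GABA receptor subunits gave no call. Of the 14 other subunit genes listed, 9 had a probe set, with 11 probe sets in all, and 0 of the 9 genes passed in either direction. In limma their changes had unadjusted p under 0.05 for Gabrb2 alone, a beta subunit, at -0.17 ± 0.07 (adjusted p = 0.224). The change of Gabrb2 minus that of Gabrd was 0.57 ± 0.16 (exact permutation p = 0.00571, adjusted over all probe sets p = 0.00599). That test against Gabrd passed for 98.6% of all probe sets, so passing it is no result about Gabrb2. Gabrg3, a gamma subunit, was at -0.11 ± 0.08, and Gabra3, an alpha subunit, was at 0.00 ± 0.08. Gabra6, an alpha subunit known from cerebellar granule cells, was at 0.11 and 0.05 on 2 probe sets, and Gabre and Gabrq were each at 0.06. The rho subunits Gabrr1 and Gabrr2, known from the retina, were at 0.11 and -0.01, and Gabrp, known outside the brain, was at 0.02 and -0.02. The median of the 9 genes was 0.02, against 0.01 over all genes. Most of these genes were dim. With 1 probe set each, Gabrb2 was at percentile 58.3 of mean signal among all probe sets and Gabrp at 54.8. The rest ran from 24.1 for Gabrq to 45.9 for Gabre, with Gabra3 at 38.2 and Gabrg3 at 40.5. Whether the dim probe sets read above background was not tested, so their changes near 0 do not show unchanged transcripts.

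Of the genes that build, move and anchor GABA-A receptors 1 passed the test. Of 18 listed genes 12 were measured, 1 was lower in R6/2 and 0 were higher, with a median of -0.08. Over all genes, with 1 probe set each, 2.08% were lower and the median was 0.01. The lower one was Ubqln1, a ubiquitin-like protein that binds GABA-A receptor subunits and slows their degradation, at -0.34 ± 0.08 and 79.0% of wild-type (limma adjusted p = 0.0299). M.C alone gave -0.50 and Mith alone -0.13. Trak1, a motor adaptor involved in receptor trafficking, was at -0.23 ± 0.08 (adjusted p = 0.145). Gphn, which encodes the synaptic anchor gephyrin, was at -0.16 ± 0.09 (adjusted p = 0.417). M.C alone gave -0.35 for Gphn and Mith alone 0.10. Changes below 0 in M.C and above 0 in Mith were seen for 7 of the 12 genes, Gphn and the 3 GABARAP family genes among them, and for 21.7% of all genes.

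GABA-A receptors depend on the supply of GABA and on the chloride gradient. Of 7 genes of GABA synthesis, packaging, uptake and breakdown 4 were measured, and all 4 changes were below 0 with a median of -0.27, 1 of them called lower and 0 higher. Over all genes 43.8% of changes were below 0 and 2.08% were called lower. Gad1, which makes most GABA in neurons, passed at -0.29 ± 0.07 and 81.9% of wild-type (limma adjusted p = 0.045). Abat, which breaks GABA down, was at -0.29 ± 0.11 (adjusted p = 0.186), and Gad2, the synaptic GABA-synthesising enzyme, at -0.26 ± 0.10 (adjusted p = 0.207). The 4 genes of the chloride gradient were each between -0.24 and -0.19 and none passed. They include Slc12a2, the chloride importer NKCC1 (adjusted p = 0.296), Slc12a5, the exporter KCC2 (adjusted p = 0.177), and Wnk1, a kinase that controls both (adjusted p = 0.144). Of 8 GABA-B receptor partners and effectors 4 were measured, all potassium channel subunits that the receptor opens, and none passed, with Kcnj9 at 0.11 (adjusted p = 0.324) and Kcnj5 at 0.09 (adjusted p = 0.535).

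Markers of the striatum were present, with Ppp1r1b, which encodes the projection neuron phosphatase inhibitor DARPP-32, averaging 9.90 in R6/2 and 10.70 in wild-type striatum. Several marker lists held genes lower in R6/2, against 2.08% of all genes and a median change of 0.01 over all genes. Of 9 measured projection neuron markers 7 were lower in R6/2 and 0 higher, with a median change of -0.69 and medians of -0.80 in M.C and -0.38 in Mith. Their mean log2 level per array ran from 9.63 to 10.03 in R6/2 and from 9.87 to 10.76 in wild-type striatum. Gabrd was at -0.74, -0.96 and -0.45 in the same 3 comparisons, and the part of the projection neuron genes in its change was not tested. Of 9 interneuron markers 3 were lower (median -0.25), of 8 mature oligodendrocyte markers 5 were lower (median -0.32) and of 10 astrocyte markers 0 passed (median -0.22). Of 8 microglia markers 0 passed (median -0.03), and of 4 cortical glutamatergic markers 0 passed (median 0.07). Of 7 thalamic neuron markers 0 passed, with a median of 0.07 in M.C and -0.66 in Mith. Their mean level in Mith ran from 7.12 to 7.65 in R6/2 and from 7.58 to 8.35 in wild-type arrays, and in M.C from 6.71 to 7.23 in R6/2 and from 6.79 to 7.05 in wild-type arrays. The genotypes overlapped in these levels in both cohorts. The part of the thalamic difference was not tested for Gabrd, at -0.96 in M.C and -0.45 in Mith, nor for Gabrb1, at -0.30 in Mith.

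RNA quality was read from the control probe sets of Actb, where a larger 3′ minus 5′ log2 difference means that more of the signal comes from the end of the transcript. It averaged 0.61 ± 0.18 in R6/2 and 0.37 ± 0.14 in wild-type arrays (SD, n = 7 each). With it as a covariate Gabrd was at -0.68 ± 0.13 and passed narrowly (limma adjusted p = 0.0488), while Gabrb1 was at -0.14 ± 0.09 (adjusted p = 0.559). R6/2 replicate 4, which had the lowest rank correlation with the other arrays of its cohort, had the lowest Actb difference of the R6/2 arrays, 0.28. Gabrd read 8.25 there, among the other R6/2 arrays and below all wild-type arrays, and without it the change was -0.74 ± 0.11 (adjusted p = 0.00245). Beyond these values, the part of RNA quality in the changes was not tested.

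**Figure D5:**
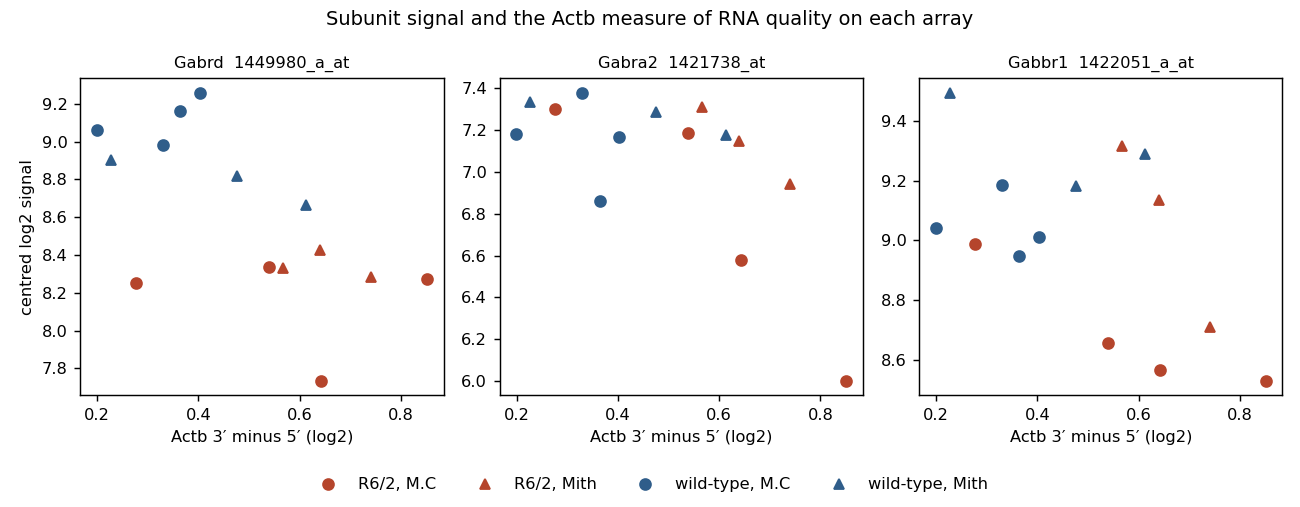
Centred log2 signal of Gabrd, Gabra2 and Gabbr1 1422051_a_at (vertical axes) against the Actb 3′ minus 5′ log2 difference (horizontal axes) on each of the 14 arrays. R6/2 is red and wild-type is blue, circles are M.C and triangles are Mith. The R6/2 points lie further to the right on average, at 0.61 against 0.37 for wild-type, and the Gabrd points of the 2 genotypes do not overlap in height.

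The genes whose profile over the 14 arrays was most like that of Gabrd were ranked by the root mean square difference between 2 profiles, each centred on its own mean, among 12117 genes with a single symbol. The 5 nearest were Itpka at 0.136 log2 units, Penk at 0.139, B3gnt2 and Cacna2d3 at 0.163 and Dusp14 at 0.171, against a median gene at 0.451. Itpka encodes an inositol trisphosphate kinase, Penk the precursor of enkephalin made by projection neurons of the indirect pathway, and Cacna2d3 an accessory subunit of calcium channels, while Dusp14 is a protein phosphatase and B3gnt2 a sugar transferase. After each cohort was centred on its own mean, the 5 nearest were Strn at 0.0840, Itpka at 0.0899, Penk at 0.122, Car12 at 0.123 and Rgs4 at 0.132. Strn encodes the scaffold protein striatin, Car12 a carbonic anhydrase and Rgs4 a regulator of G protein signalling. Itpka and Penk were in both rankings. The other receptor probe sets were farther away, from 0.311 for Gabbr1 1422051_a_at to 0.460 for Gabbr1 1437188_at in the second ranking. The nearest genes were picked for their likeness to Gabrd, so their changes with genotype are fixed by the choice and are not given as results.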

How the data were processed

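The deposited values are log2 probe set signals of an Affymetrix mouse array, a unit read from their range of 2.96 to 14.5. The authors' summary and normalization of the signals are not given in these sources. Array medians ran from 7.07 to 7.17, and the arrays were shifted to the same median. The 64 control probe sets were left out, leaving 22626. Gene symbols were the platform's, updated by gene ID: 20380 probe sets had 1 symbol, 691 several and 1555 none. Where 1 probe set stands for a gene, it is the one of highest mean signal, passing over IDs ending _x_at or _s_at where the gene has another.

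Tests used limma 3.58.1 in R 4.3.3 (lmFit and eBayes, two-sided, Benjamini-Hochberg over all probe sets, call at an adjusted p under 0.05) with genotype and cohort as terms, after a check on simulated data. Replicates are numbered in record order, 1 to 4 in M.C and 5 to 7 in Mith, and the numbers pair nothing. Named genes are every probe set of the 7 genes, all other subunits, called genes and up to 2 of the largest changes of each pathway list, and the 5 profiles nearest to Gabrd; Gphn, Gad2, Slc12a5 and the GABARAP genes were added after their values were seen. The receptor genes and lists were chosen with earlier results of these data known, the fall of Gabrd included. Alternatives covered the cohort term, centring, quantile normalization, dim probe sets, variances, array weights, the Actb covariate, the threshold and each array left out.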

Additional observations from a re-analysis of the deposited data

Results flagged for a closer look

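Single arrays stood apart within their group for 4 of the 9 probe sets, by the ratio of an end value's gap to the range of its group. Chance marks about 5% of groups in this way, and 36 groups were looked at. For Gabrd, R6/2 replicate 1 was the lowest at 7.7347, both among the 7 R6/2 arrays and among the 4 of M.C. For Gabra2, wild-type replicate 4 was the lowest of the 7 wild-type arrays at 6.86. For Gabrb1, R6/2 replicate 3 was the highest of the 4 R6/2 arrays of M.C at 9.1964. For Gabrg1 1460408_at, R6/2 replicate 2 was the highest of the 4 R6/2 arrays of M.C at 7.5345, and wild-type replicate 1 was the lowest of the 4 wild-type arrays of M.C at 7.2631.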

How the results depend on the processing

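Of 450 values recomputed under an alternative, 436 kept their direction and their side of the threshold (or, for counts, stayed within 1.5 times). Gabrd was called in all 22 alternatives over both cohorts, from -0.79 to -0.65 with adjusted p of 0.000374 to 0.0488. Over all probe sets 578 were called, against 56 with the Actb covariate, 100 with no cohort term, 131 at a threshold of 0.01, 1333 with array weights and 280 to 879 with 1 array left out. In M.C alone 558 were called, against 371 after quantile normalization and 242 to 962 with 1 array left out. In Mith alone 0 were called, and at most 13 with 1 array left out. The count of receptor probe sets called over both cohorts was 2 with array weights and 1 to 2 when 1 array was left out. It was 2 without R6/2 replicate 4 and without R6/2 replicate 5. In M.C it was 1 to 2, with 2 without R6/2 replicate 4. Over both cohorts the added call was Gabbr1 1422051_a_at, at -0.37 with array weights (adjusted p = 0.00902). The Gabra2 change turned to 0.1178 with the Actb covariate. With 1 array left out, the change of Gabrg1 1427227_at was -0.0099 to 0.0814 and that of Gabbr1 1425595_at was -0.0173 to 0.0557, below 0 in 5 cases. The causes were not tested. With brighter probe sets alone Gabra2, Gabrg1 1427227_at and Gabbr1 1425595_at gave no value. Their mean signals were at percentiles 48.8, 29.8 and 40.6 of all probe sets, in that order. No paired analysis was possible because the replicate numbers were given in record order. No raw scans were used here, so signal over background is unknown.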
